A study of Mus musculus with 10 samples.

Results

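The fatty acid uptake and oxidation genes described here were 37 genes, taken by symbol from an expression table of 46786 genes in mouse hearts of 3 months and from another of 46977 genes in hearts of 12 months. All 37 were measured at both ages, and all passed the filter for testing, a mean of at least 1 FPKM (fragment counts divided by transcript length and library size). They fall into 7 roles: 4 genes bring fatty acids into the cell, 5 activate them and carry them into mitochondria, 9 form the beta-oxidation spiral, 6 handle unsaturated acids and electron transfer, 6 are thioesterases, uncoupling proteins and the malonyl-CoA enzyme, 2 are regulators known to respond to fasting, and 5 act on lipid droplets and triglyceride. RNA was sequenced from dissected hearts of mice labelled control or Prdm16 knockout, in 3 libraries of each genotype at 3 months of age and 2 of each at 12 months. Prdm16 encodes a zinc-finger transcriptional regulator. The labels name no allele, Cre driver, strain, sex or pooling. They do not tell whether each library of a group is a different animal, and p-values cover only the spread between libraries, which may be technical.

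The adult heart draws most of its energy from fatty acids. Lipoprotein lipase frees them in the capillary, membrane and cytosolic proteins take them up, the carnitine shuttle moves them into mitochondria, and the beta-oxidation spiral cuts them into acetyl-CoA while passing electrons to the respiratory chain. Many of these genes are known targets of the nuclear receptor PPAR alpha, which binds fatty acids, and genes such as Pdk4, Angptl4 and Ucp3 are known to respond to fasting.

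Prdm16 itself was listed at 1.44, 2.23 and 1.61 FPKM in the 3-month controls and at 1.43, 0.760 and 2.03 FPKM in the knockouts, so the groups overlapped. At 12 months Prdm16 was at 6.31 and 5.05 FPKM in controls and at 4.02 and 3.58 FPKM in knockouts, a log2 difference of -0.47 with an adjusted p of 0.340 in limma. The deleted exons are not named in the labels, so a gene-level value is a weak check of the labels. The 12-month controls also differed from the knockouts in sex-linked genes: Xist was at 33.1 and 31.0 FPKM in controls against 0.0911 and 0.0240 in knockouts, and the Y-linked Ddx3y at 0.0352 and 0.0114 against 24.5 and 20.7 FPKM. At 12 months genotype and sex therefore cannot be told apart. At 3 months Ddx3y was at 16.5 to 19.9 FPKM in all 6 libraries, with no such split.

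Libraries within a group were not equally spread. For genes of at least 20 FPKM, the robust SD of the log2 ratio was 0.078 between the 12-month controls and 0.387 between the 12-month knockouts. Read numbers recovered from the 12-month values (21.8 to 31.3 M reads per library) gave a median chi-square of 0.50 between the controls over 2102 genes of 10 to 1000 reads, against 0.455 from sampling noise alone. Over 365 genes of 1000 reads or more it was 0.96, with 17.5% of genes under p 0.05 against 5% from sampling noise. The controls thus differed by little more than sampling noise for the less abundant genes and by more for the abundant ones. Between the 12-month knockouts the median over such abundant genes was 38.5. Cardiomyocyte markers were abundant in every library, with summed levels of 28950 to 38540 FPKM at 3 months and 65830 to 71150 FPKM at 12 months. The tissue is bulk, so fewer cells of a type and less RNA per cell cannot be told apart.

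At 12 months, 36 of the 37 genes were higher in the knockout mean than in the control mean on the FPKM scale, against 51.5% of all genes tested. With each library rescaled to the same total (TPM), 28 of the 37 were higher, against 18.7% of all genes tested. The excess came mostly from 1 of the 2 knockout libraries. Dgat1, which makes triglyceride, was the exception on the FPKM scale. Knockout replicate 2 held the highest level of the 4 libraries for 35 of 37 genes, against 35.7% of all genes tested. Its median was 0.73 above the control mean on the log2 scale, against 0.12 for knockout replicate 1. Over all genes the median was -0.00 in knockout replicate 2 and 0.03 in knockout replicate 1. No gene of the 37 passed an adjusted p of 0.05 in limma with Benjamini-Hochberg adjustment, where 52 of 13179 genes did (0.395%, or 0.167% higher and 0.228% lower). At an unadjusted p under 0.05 there were 5 of the 37 and 1787 of all genes.

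**Figure D1:**
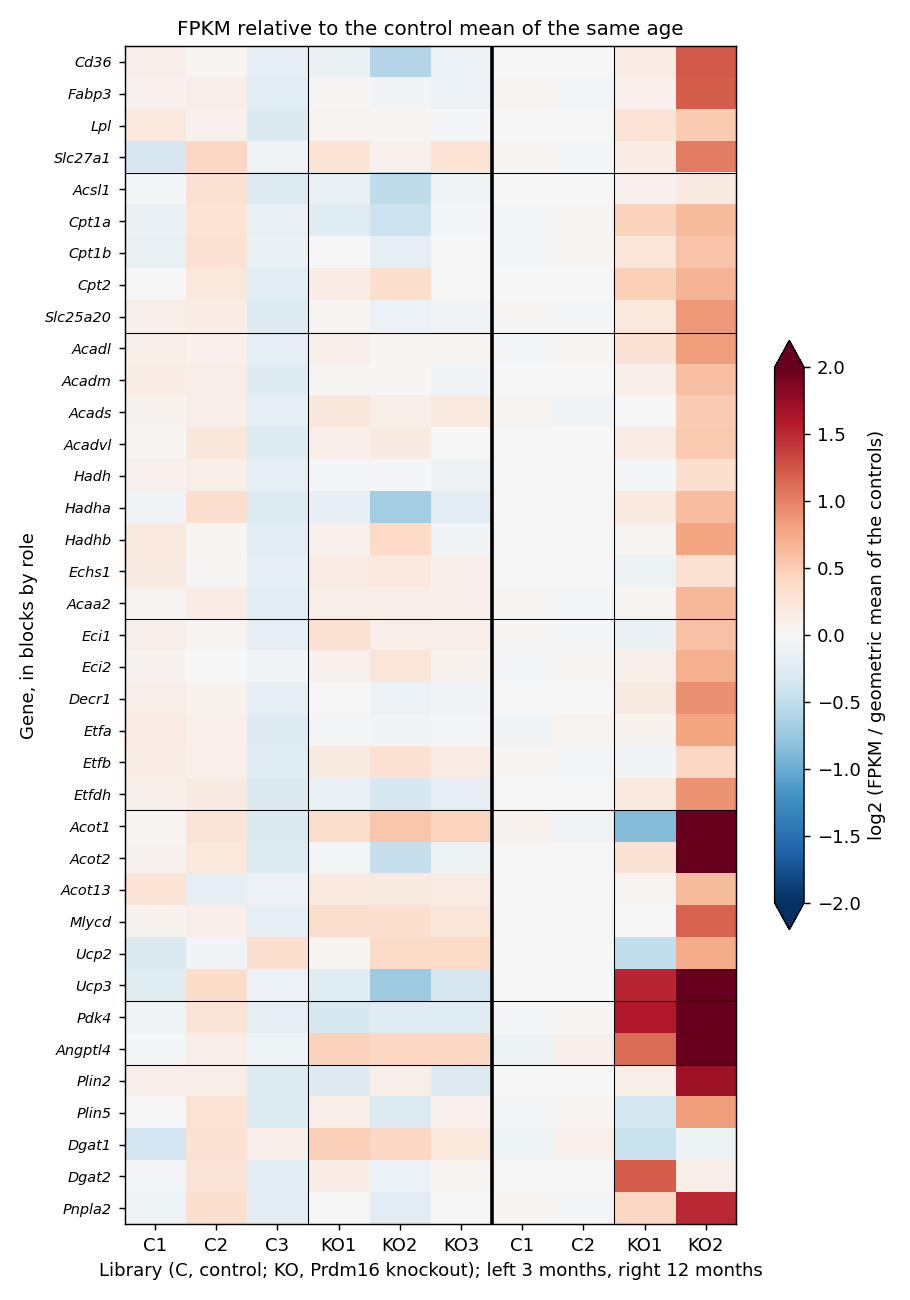
Levels of the 37 genes in each of the 10 libraries, as log2 of FPKM over the geometric mean of the controls of the same age, with genes in blocks by role and colour limits at -2 and 2. The column of knockout replicate 2 at 12 months is the darkest, and the third control of 3 months is pale blue for nearly every gene.

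The median difference between genotypes at 12 months was 0.43 on the log2(FPKM + 1) scale for the 37 genes and 0.01 for all genes tested. The groups did not overlap for 27 genes that were higher in knockouts, where the background was 27.3%, and for 1 gene that was lower, Dgat1, where it was 23.0%. Knockout replicate 1 exceeded both controls for 27 of 37 genes (background 46.2%) and knockout replicate 2 for 36 (background 44.4%). Only Pdk4, Angptl4, Ucp3 and Dgat2 were more than 1.5 times the control mean in knockout replicate 1, 4 of 37 against 7.66% of all genes. In knockout replicate 2 that number was 26 of 37, against 13.3%.

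The knockout libraries of 12 months differed from each other in a graded way. Knockout replicate 2 was over 1.5 times knockout replicate 1 for 22 of the 37 genes, against 11.6% of all genes. The median log2 ratio between these libraries was 0.66 for the 37 genes and -0.01 for all genes, whose quartiles were -0.29 and 0.27. The ratio was widest for Angptl4 (10.9-fold), Acot1 (10.7-fold) and Pdk4 (6.71-fold), and lay below 1 only for Dgat2 (0.468). The order knockout 2, then knockout 1, then both controls held for 26 of 37 genes, against 18.6%.

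These counts depend on the scaling. The knockout libraries had larger FPKM totals than the controls, and rescaling to TPM moved the median difference of all genes to -0.27 and that of the 37 genes to 0.10. Under median-of-ratios scaling these medians were 0.01 and 0.43, with 36 of the 37 genes higher. On the TPM scale knockout replicate 2 was still the highest library for 31 of the 37 genes, where 16.0% of all genes were, and it was over 1.5 times knockout replicate 1 for 17 genes, where 8.23% were. Knockout replicate 1 then lay above both controls for 10 of 37 genes (17.7% of all genes), and the groups did not overlap for 9 higher genes (7.85% of all genes). The excess in knockout replicate 2 was thus seen on the FPKM and TPM scales, while a small excess in knockout replicate 1 held for fewer genes on the TPM scale.

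**Figure D2:**
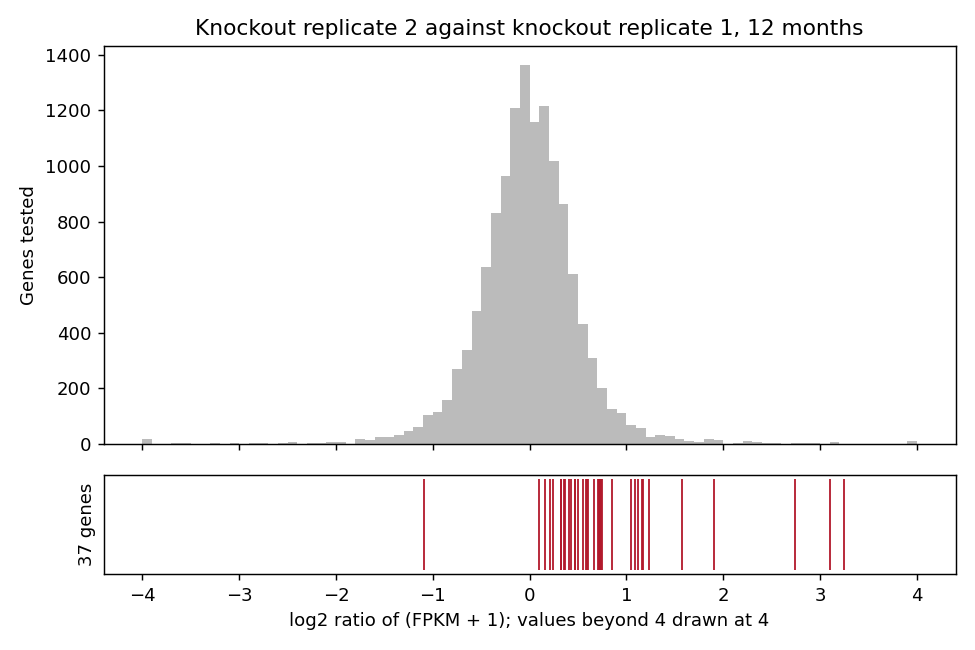
Upper panel, histogram of log2 ratios of (FPKM + 1) between the knockout libraries of 12 months, replicate 2 over replicate 1, over 13179 genes. Lower panel, 1 line for each of the 37 fatty acid genes; their median is 0.66, and 1 gene, Dgat2, lies left of 0 at -1.09.

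A fit without knockout replicate 1 or without knockout replicate 2 rests on the spread between the 12-month controls, so it compares the remaining library, not the genotype, with them. With knockout replicate 2 left out, the median of the 37 genes was 0.12 and 28 of 37 were higher. Pdk4, Ucp3, Dgat2 and Cpt2 were called higher and Ucp2 was called lower in that fit, which called 4.98% of all genes. With knockout replicate 1 left out, 35 of 37 were called higher in a fit that called 33.4% of all genes. With either 12-month control left out no gene in the table was called.

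At 3 months the 37 genes did not move as a group. In knockouts 19 were higher and 18 lower (16 and 21 under TPM or median-of-ratios scaling), where 65.0% of all genes were higher, and the median log2 difference was 0.02 against 0.09 for all genes. None passed an adjusted p of 0.05 in limma with Benjamini-Hochberg adjustment, where 91 of 12200 genes did (0.746%, or 0.623% higher and 0.123% lower). At an unadjusted p under 0.05 there were 3 of the 37 and 2224 of all genes. Ratios of the knockout mean to the control mean lay between 0.734 for Ucp3 and 1.35 for Acot1. On the FPKM scale the groups did not overlap for 6 genes higher in knockouts (Acads, Eci2, Etfb, Acot1, Mlycd and Angptl4, background 20.1%) and for 1 lower, Pdk4 (background 4.6%). On the TPM scale the groups overlapped for each of these genes. Control replicate 2 had the lowest FPKM total, 516272 against 626492 to 718787 in the other 3-month libraries, so TPM scaling raises its values most.

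The third control of 3 months stood low. Only 2 of the 37 genes lay above the control mean in it, and its median was -0.20, against -0.08 for all genes. Atrial markers summed to 6193 FPKM in it, against 1034 and 716 in the other controls. Its cardiomyocyte markers summed to 28950 FPKM, against 35960 and 36220. In the second control 34 of 37 lay above the mean. Without control replicate 3 the median difference of the 37 genes was -0.13 with 15 higher, and without control replicate 2 it was 0.09 with 26 higher, so the balance of directions at 3 months rests on which control is included. Knockout replicate 2 of 3 months stood apart from the other knockouts over all genes, with a robust SD of 0.288 and 0.332 to them against 0.109 between those. It held the highest atrial (28670 FPKM), fibroblast (496) and macrophage (281) marker sums at 3 months, but not the highest red blood cell or skeletal muscle sums. The part of tissue make-up in these library differences was not tested.

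Entry into the cell came first in the order of roles. Cd36, the fatty acid translocase of the membrane, was at 714 and 729 FPKM in the 12-month controls, 812 in knockout replicate 1 and 1685 in knockout replicate 2. Fabp3, the cytosolic carrier of heart muscle, was at 458 and 431 FPKM in controls and 473 and 1027 in knockouts. For both genes knockout replicate 1 lay within 1.13 times the control mean and knockout replicate 2 above 2.3 times. Lpl, the lipase at the capillary wall, was at 1106 and 1121 FPKM in controls and at 1353 and 1602 in knockouts, a log2 difference of 0.40 (SE 0.14, adjusted p = 0.355 in limma). Slc27a1, a fatty acid transport protein, was at 38.0 and 36.3 FPKM in controls and 41.3 and 75.3 in knockouts. All 4 genes were higher in each knockout than in each control at 12 months on the FPKM scale, where 27.3% of all genes were. On the TPM scale only Lpl kept that order, and knockout replicate 1 lay below both controls for Cd36, Fabp3 and Slc27a1.

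At 3 months the same 4 genes overlapped between genotypes. Cd36 was at 412, 390 and 334 FPKM in controls and 344, 251.2 and 349 in knockouts, lowest in knockout replicate 2 (log2 difference -0.28, SE 0.17, adjusted p = 0.412 in limma). Lpl was at 820, 759 and 580 FPKM in controls and 739, 733 and 698 in knockouts, a ratio of 1.005. Fabp3 and Slc27a1 had ratios of 0.959 and 1.13. Fabp3 shares 29.2% of its 50-base stretches with the pseudogene Fabp3-ps1, itself listed at 824 to 2165 FPKM at 12 months, so reads may be split between them.

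Lpl, Cd36 and Angptl4 are also made by adipocytes, by endothelial cells or by both. The summed level of 9 adipocyte markers at 12 months was 107 to 110 FPKM in controls and 32.9 to 52.9 in knockouts, with 8 of the 9 lower in the knockout mean. The exception, Cidea, was at 27.6 and 27.1 FPKM in controls and made up most of the knockout sums, at 21.8 and 39.5. Summed endothelial markers were 398 to 400 FPKM in controls and 344 to 380 in knockouts. Other lists also differed at 12 months: red blood cell markers summed to 10650 to 10780 FPKM in controls and 1956 to 2157 in knockouts (5 of 5 tested genes called lower in limma), atrial markers to 6172 to 6334 against 13620 to 15880, and fibroblast markers to 1054 to 1066 against 743 to 843. The atrial sum hides a split, as 2 of the 6 atrial genes were higher in knockouts and 4 lower, with a median log2 difference of -1.22. Skeletal muscle markers summed to 57.1 to 60.0 FPKM in controls, 59.4 in knockout replicate 1 and 16.9 in knockout replicate 2. Ucp1, a defining brown adipocyte gene, was at 8.79 and 8.01 FPKM in controls and listed at 0 in both knockouts. At 3 months adipocyte markers summed to 26.8 to 56.8 FPKM in controls and 32.6 to 50.1 in knockouts, with the highest sum in control replicate 3. Cidea alone was at 21.7 to 27.3 FPKM across these libraries. Red blood cell markers at 3 months summed to 818 to 1113 FPKM in controls and 2082 to 3111 in knockouts. All 5 tested genes of that list were called higher in limma, the reverse of 12 months. Atrial markers summed to 716 to 6193 FPKM against 12320 to 28670, and fibroblast markers to 259 to 382 against 301 to 496. Of 4 lymphocyte markers tested at 3 months, 2 were called higher in limma. The part of these cells in the results was not tested.

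The carnitine shuttle showed the most even pair of knockout libraries. Cpt2, the inner-membrane carnitine palmitoyltransferase, was at 106 and 108 FPKM in the 12-month controls and at 149 and 172 in knockouts, a log2 difference of 0.58 (SE 0.12, adjusted p = 0.241 in limma). Cpt1a, an outer-membrane form of the enzyme that is scarce in adult heart muscle, was at 12.9 and 13.4 FPKM in controls and at 18.2 and 20.3 in knockouts, 0.51 on the log2 scale (SE 0.12, adjusted p = 0.249 in limma). Both knockouts lay above both controls, by 1.38 to 1.61 times the control mean. Cpt1b, the muscle form that sets the rate of fatty acid entry into mitochondria, was at 323 and 341 FPKM in controls and 394 and 494 in knockouts. Slc25a20, the carrier that exchanges acylcarnitine for carnitine, was 1.15 times the control mean in knockout replicate 1 and 1.83 times in knockout replicate 2. Acsl1, which links fatty acids to coenzyme A, differed least, at 280 and 279 FPKM against 296 and 316.

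Of these 5 genes, 4 were lower in the knockout mean at 3 months, all with overlapping groups. Cpt1a was at 8.08, 10.7 and 7.98 FPKM in controls and 7.43, 6.55 and 8.58 in knockouts (log2 difference -0.21, SE 0.15, adjusted p = 0.468 in limma). Acsl1, Cpt1b and Slc25a20 had ratios of 0.842, 0.947 and 0.961, and Cpt2 of 1.11. Nearly all of the Cpt1b transcript is also part of an overlapping readthrough gene, so its level depends on how the counting treated that gene.

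The 9 genes of the beta-oxidation spiral stood higher in the 12-month knockout mean, with ratios of 1.08 for Echs1 to 1.51 for Acadl, although Acads, Hadh and Echs1 turned lower under TPM scaling. The acyl-CoA dehydrogenases take the first step for chains of different length. Acadl was at 620 and 643 FPKM in controls and at 773 and 1130 in knockouts, a log2 difference of 0.57 (SE 0.22, adjusted p = 0.387 in limma). Acadm was at 1053 FPKM in both controls and at 1147 and 1590 in knockouts. Acadvl and Acads were 1.12 and 1.01 times the control mean in knockout replicate 1 and both 1.43 times in knockout replicate 2. Echs1, the hydratase of the spiral, and Hadh, a dehydrogenase of shorter chains, lay below both controls in knockout replicate 1 (0.928 and 0.981 times) and above them in knockout replicate 2 (1.23 and 1.27 times). Acaa2, the thiolase of the last step, was at 470 and 453 FPKM in controls and 479 and 729 in knockouts.

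Hadha and Hadhb encode the subunits of the trifunctional protein that acts on long chains. Their RefSeq starts lie 273 bases apart on opposite strands, so by RefSeq the stretch between them is upstream of both. In the GENCODE M21 annotation Hadha reaches to base 30155162, inside the window shown. The 250 bases before the start of Hadha (GRCm38.p6, chr5:30154981-30155230, minus strand, RefSeq) are shown because the pair shares them:
Hadha: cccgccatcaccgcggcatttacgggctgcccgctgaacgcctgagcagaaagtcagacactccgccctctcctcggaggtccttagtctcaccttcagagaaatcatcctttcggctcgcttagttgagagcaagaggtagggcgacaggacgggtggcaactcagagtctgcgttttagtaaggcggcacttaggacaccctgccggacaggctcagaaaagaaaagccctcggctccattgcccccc

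At 12 months Hadha was at 943 and 959 FPKM in controls and 1090 and 1466 in knockouts, and Hadhb at 104 and 102 against 107 and 178. Both were highest in knockout replicate 2. At 3 months Hadha was at 273, 361 and 235 FPKM in controls and 256, 176 and 247 in knockouts, and Hadhb at 146, 130 and 110 against 136, 169 and 123. Knockout replicate 2 of 3 months thus held the lowest Hadha and the highest Hadhb of the 6 libraries. Hadhb shares 62.4% of its 50-base stretches with the pseudogene Gm13910, which was listed at 294 to 522 FPKM at 3 months and 509 to 919 at 12 months, so the level of Hadhb is uncertain. The other 7 spiral genes had 3-month ratios of 0.957 to 1.13.

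Enzymes for unsaturated acids and the electron transfer chain followed the spiral. Decr1, the dienoyl-CoA reductase, was at 117 and 118 FPKM in the 12-month controls and 132 and 221 in knockouts. Etfdh, which passes electrons from the flavoproteins to ubiquinone, was at 248 and 249 FPKM in controls and 284 and 464 in knockouts. Etfa, a subunit of the electron transfer flavoprotein, was at 385 and 416 FPKM against 419 and 693. For each the excess lay mainly in knockout replicate 2. Etfb, the partner subunit, and Eci1, an enoyl-CoA isomerase, were below both controls in knockout replicate 1, at 0.966 and 0.910 times, and above them in knockout replicate 2, at 1.34 and 1.497 times. Eci2, another isomerase, was higher in every knockout than in every control at both ages on the FPKM scale, as were 20.1% of all genes at 3 months and 27.3% at 12 months. Its ratios were 1.10 at 3 months and 1.08 and 1.63 for the knockouts of 12 months. On the TPM scale its groups overlapped at both ages. Most of the Etfb transcript overlaps another annotated gene, Gm45233, in which 67.3% of its 50-base stretches recur.

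The largest differences at 12 months lay in Pdk4 (GRCm38, chr6:5483351-5496309, minus strand) and Angptl4 (chr17:33773750-33781830, minus strand). Pdk4, the kinase that shuts pyruvate dehydrogenase and so spares glucose, was at 60.6 and 63.1 FPKM in controls, 188 in knockout replicate 1 and 1260 in knockout replicate 2. These are 3.04 and 20.4 times the control mean, and the log2 difference was 2.96 (SE 0.96, adjusted p = 0.336 in limma). Angptl4, the secreted inhibitor of lipoprotein lipase, was at 2.69 and 3.11 FPKM in controls, 6.26 in knockout replicate 1 and 68.0 in knockout replicate 2 (log2 difference 2.52, SE 1.14, adjusted p = 0.429 in limma). Both knockouts lay above both controls for both genes, and the spread between the knockouts was wider than the gap of knockout replicate 1 to the controls.

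At 3 months these regulators went different ways. Angptl4 was at 13.8, 15.5 and 13.4 FPKM in controls and at 19.5, 19.0 and 19.0 in knockouts. Its groups did not overlap on the FPKM scale (14.2 ± 1.12 against 19.2 ± 0.281, SD, n = 3 each) but did on the TPM scale. Its log2 difference of 0.41 (SE 0.11) had the lowest adjusted p of the 37 genes, 0.142 in limma, against 0.858 in limma under TPM scaling. Pdk4 was at 181, 229 and 166 FPKM in controls and at 153, 160 and 162 in knockouts, lower and also without overlap on the FPKM scale only (192 ± 32.5 against 158 ± 4.93, SD, n = 3 each). The log2 difference of Pdk4 was -0.27 (SE 0.15, adjusted p = 0.366 in limma).

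Ucp3, a mitochondrial carrier of the uncoupling protein family that is enriched in muscle, had the lowest p of the 37 genes at 12 months. It was at 9.47 and 9.44 FPKM in controls and at 27.1 and 46.1 in knockouts, 2.86 and 4.88 times the control mean. The log2 difference was 1.80 (SE 0.28, adjusted p = 0.174 in limma). At 3 months Ucp3 was at 28.6, 43.7 and 31.4 FPKM in controls and at 28.8, 20.5 and 26.8 in knockouts, a log2 difference of -0.42 (SE 0.19, adjusted p = 0.276 in limma). Ucp2, its widely expressed relative, was at 171 FPKM in both 12-month controls, below them at 121 in knockout replicate 1 and above them at 285 in knockout replicate 2.

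The acyl-CoA thioesterases Acot1 and Acot2, which release fatty acids from coenzyme A in the cytosol and in mitochondria, lie next to each other on chromosome 12 with RefSeq starts 21641 bases apart. Acot2 was at 14.9 and 15.1 FPKM in the 12-month controls, 18.3 in knockout replicate 1 and 71.3 in knockout replicate 2. Acot1 was at 6.91 and 6.28 FPKM in controls, 3.59 in knockout replicate 1 and 38.6 in knockout replicate 2. Acot1 thus deviated in opposite directions in the knockouts, at 0.545 and 5.85 times the control mean. At 3 months Acot1 was at 8.36, 9.66 and 6.63 FPKM in controls and at 10.4, 11.9 and 11.1 in knockouts (log2 difference 0.41, SE 0.14, adjusted p = 0.204 in limma), and Acot2 had a ratio of 0.868 with overlap. About 33.2% of the 50-base stretches of Acot1 recur in Acot2, so reads may be split between them.

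Mlycd, which breaks down malonyl-CoA, the inhibitor of the outer carnitine palmitoyltransferase, was at 47.1 and 47.0 FPKM in the 12-month controls, 47.1 in knockout replicate 1 and 106 in knockout replicate 2. At 3 months it was at 57.1, 59.6 and 47.5 FPKM in controls and at 69.8, 67.9 and 64.2 in knockouts, without overlap on the FPKM scale only (log2 difference 0.30, SE 0.13, adjusted p = 0.265 in limma). Acot13, a smaller thioesterase, was 1.04 and 1.56 times the control mean in the 12-month knockouts and had a ratio of 1.12 at 3 months.

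Promoter windows are shown for genes with wide differences at 12 months: Pdk4 (GRCm38.p6, chr6:5496279-5496528, minus strand), Ucp3 (chr7:100472741-100472990, plus strand), Acot1 (chr12:84009252-84009501, plus strand), Acot2 (chr12:83987611-83987860, plus strand) and Plin2 (chr4:86670060-86670309, minus strand). Each holds the 250 bases before the RefSeq start, and capitals mark AGGTCA or its reverse complement TGACCT, the half-site of PPAR alpha and of many other nuclear receptors:
Pdk4: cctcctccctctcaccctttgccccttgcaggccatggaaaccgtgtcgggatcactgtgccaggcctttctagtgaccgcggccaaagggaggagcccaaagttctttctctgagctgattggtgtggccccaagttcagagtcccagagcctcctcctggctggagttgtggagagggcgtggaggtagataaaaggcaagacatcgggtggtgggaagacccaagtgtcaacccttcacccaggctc
Ucp3: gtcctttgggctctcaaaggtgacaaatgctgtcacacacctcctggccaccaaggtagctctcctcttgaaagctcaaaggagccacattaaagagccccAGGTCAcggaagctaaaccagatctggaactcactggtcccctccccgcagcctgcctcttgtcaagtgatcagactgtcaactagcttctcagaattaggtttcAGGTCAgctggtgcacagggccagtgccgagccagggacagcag
Acot1: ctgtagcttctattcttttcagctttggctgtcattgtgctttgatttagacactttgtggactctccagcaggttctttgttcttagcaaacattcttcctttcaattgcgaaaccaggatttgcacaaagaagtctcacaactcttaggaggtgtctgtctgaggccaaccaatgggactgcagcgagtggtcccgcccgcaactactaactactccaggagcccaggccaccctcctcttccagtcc
Acot2: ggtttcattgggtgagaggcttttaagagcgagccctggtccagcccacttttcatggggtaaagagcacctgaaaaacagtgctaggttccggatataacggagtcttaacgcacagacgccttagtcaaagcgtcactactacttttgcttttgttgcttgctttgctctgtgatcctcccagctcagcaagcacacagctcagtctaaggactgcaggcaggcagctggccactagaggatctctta
Plin2: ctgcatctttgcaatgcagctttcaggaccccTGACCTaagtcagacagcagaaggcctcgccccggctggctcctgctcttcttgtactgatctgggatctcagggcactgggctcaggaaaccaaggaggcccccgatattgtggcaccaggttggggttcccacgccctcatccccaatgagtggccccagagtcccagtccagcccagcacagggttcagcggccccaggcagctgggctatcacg

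The half-site AGGTCA, on either strand, was in 8 of 33 windows of the 29 genes that matched the RefSeq table (Acadm, Acadvl, Cd36, Cpt1a, Echs1, Plin2, Plin5 and Ucp3) and in 14.02% of all 32851 windows of this length. Ucp3 holds it at 2 places on the strand shown and Plin2 at 1 place on the other. The direct repeat of 1 half-site, any base and another half-site, which contains AGGTCA, was in 0 of the 33 windows and in 11 of all windows (0.03%). Pdk4, Acot1 and Acot2 hold neither in these letters.

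Droplet genes divided between the knockout libraries. Plin2, a coat protein of lipid droplets, was at 64.2 and 63.0 FPKM in the 12-month controls, 68.7 in knockout replicate 1 and 206 in knockout replicate 2. Pnpla2, the adipose triglyceride lipase that opens the droplet store, was at 185 and 176 FPKM in controls and at 241 and 515 in knockouts. Both were far higher in knockout replicate 2. Dgat2, which completes triglyceride synthesis, was the reverse, at 95.1 and 93.8 FPKM in controls, 219 in knockout replicate 1 and 102 in knockout replicate 2. Dgat1, the other enzyme of that step, was at 10.97 and 12.3 FPKM in controls and at 8.49 and 10.9 in knockouts. Plin5, the droplet coat of oxidative muscle, was 0.788 times the control mean in knockout replicate 1 and 1.79 times in knockout replicate 2.

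At 3 months Dgat1 went the other way, at 7.84, 12.5 and 10.97 FPKM in controls and 14.2, 13.7 and 11.9 in knockouts (log2 difference 0.34, SE 0.17, adjusted p = 0.320 in limma), with overlap. Plin2, Plin5, Dgat2 and Pnpla2 had 3-month ratios of 0.913, 0.983, 1.01 and 0.945, all with overlap.

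**Figure D3:**
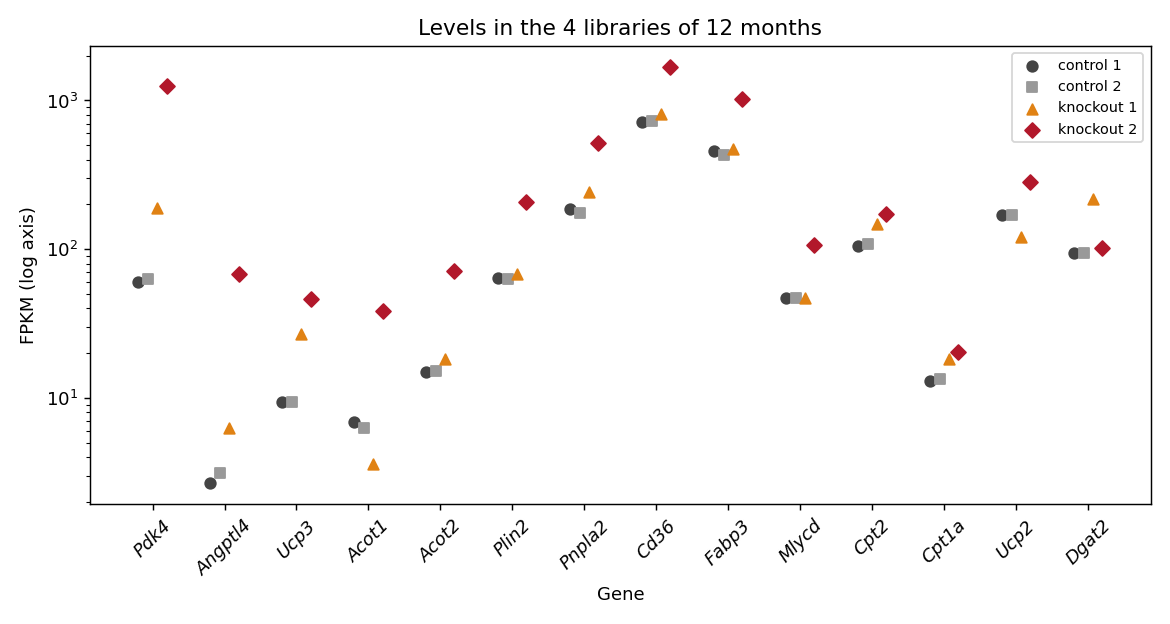
FPKM of 14 of the genes in each 12-month library on a log axis, with both controls and both knockouts as separate symbols. The controls lie close together for each gene, and knockout replicate 2 is the highest symbol except for Dgat2, where knockout replicate 1 is at 219.

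The difference between ages, knockout minus control at 12 months minus the same at 3 months, was fitted over all 10 libraries and 11580 genes, each age being set against its own controls because the ages lie in separately prepared tables. Of the 37 genes, Ucp3 was the only one called, at 2.22 on the log2 scale (SE 0.34, adjusted p = 0.0125 in limma). Over all genes 160 were called (1.38%), of which 76 were higher (0.656%). Ucp3 was not overlapping between genotypes at 12 months and overlapping at 3 months. The call was lost when either 12-month control was left out (adjusted p = 0.0766 without control replicate 1 and 0.0743 without control replicate 2 in limma).

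Pdk4 was next, at 3.22 (SE 0.80, adjusted p = 0.0880 in limma), being lower in every 3-month knockout on the FPKM scale and higher in both 12-month knockouts. Cpt1a followed at 0.73 (SE 0.22, adjusted p = 0.135), Pnpla2 at 1.03 (SE 0.39, adjusted p = 0.235) and Etfdh at 0.75 (SE 0.29, adjusted p = 0.254), all in limma. With 1 library left out in turn these estimates ranged from 1.85 to 4.59 for Pdk4, from 0.48 to 1.57 for Pnpla2 and from 0.40 to 1.11 for Etfdh, the lowest without 12-month knockout replicate 2 and the highest without knockout replicate 1. The estimate was above 0 for 33 of the 37 genes, against 40.8% of all genes, and below 0 for Echs1, Etfb, Ucp2 and Dgat1.

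**Figure D4:**
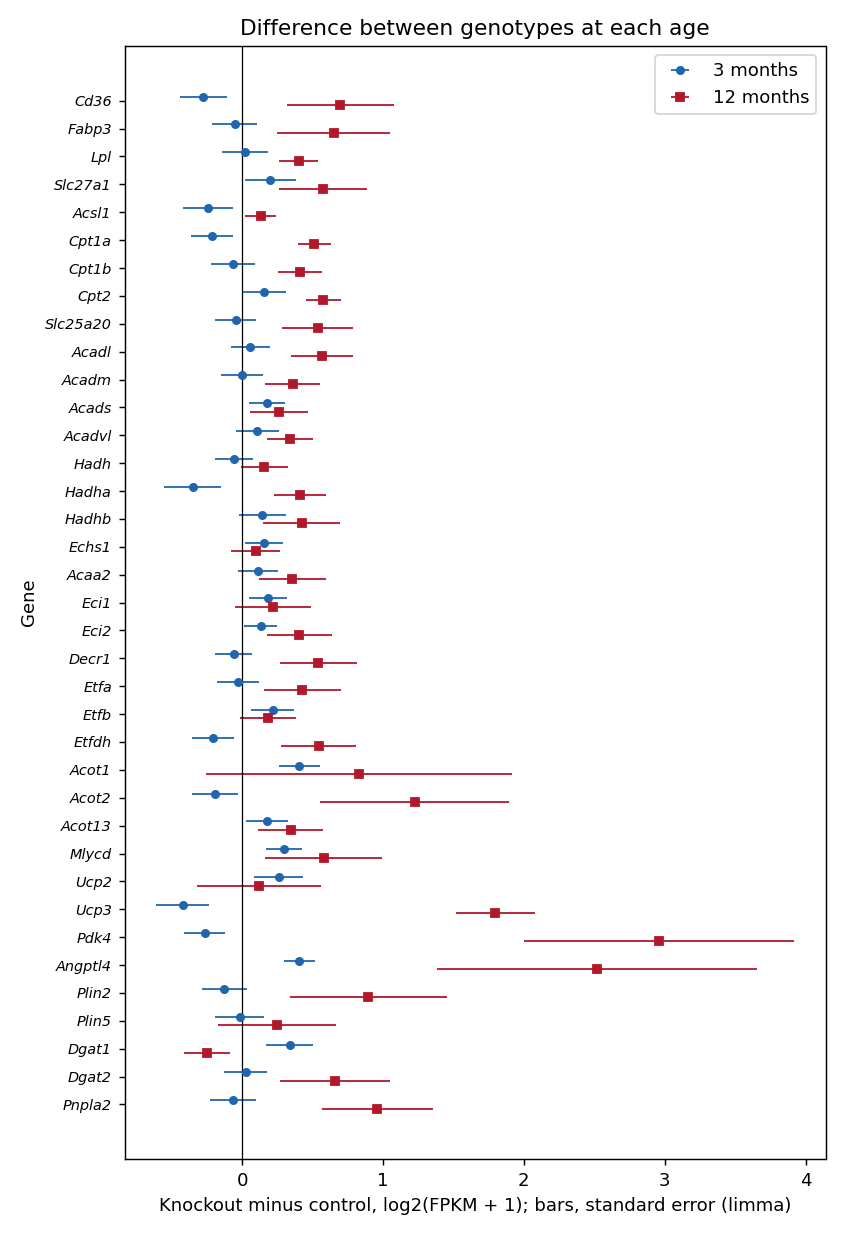
Log2 differences between knockout and control, on the log2(FPKM + 1) scale, for the 37 genes at 3 months (circles) and at 12 months (squares), with bars of 1 standard error from limma. At 3 months all values lie between -0.42 and 0.41, and at 12 months all but Dgat1 lie above 0 on the FPKM scale shown, where TPM scaling leaves 28 above, with the widest bars for Angptl4, Acot1 and Pdk4.

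Other genes of the pathway were taken from 3 wider lists. Over all genes an unadjusted p under 0.05 was found for 2224 of 12200 at 3 months and 1787 of 13179 at 12 months, and 51.5% were higher at 12 months, or 18.7% under TPM scaling. Of 20 regulators of fatty acid oxidation, none was called at either age in limma, with 0 at 3 months and 2 at 12 months under an unadjusted p of 0.05. At 12 months 7 were higher and 13 lower, with a median of -0.15 (3 of 20 higher under TPM scaling). The lowest p values were those of Med1, a subunit of the Mediator complex (14.5 and 11.2 against 7.90 and 8.20 FPKM), of Pparg, the adipocyte-rich nuclear receptor (5.16 and 6.61 against 9.12 and 14.0), and of Esrrg, an estrogen-related receptor (8.99 and 8.37 against 12.2 and 10.4). At 3 months they were those of Ppara (log2 difference -0.36), the stress-responsive factor Klf15 (0.32) and the AMP-activated kinase subunit Prkaa2 (-0.30).

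Of 15 peroxisomal genes, 13 were tested at 3 months and 14 at 12 months, and none was called in limma, with 1 and 3 under an unadjusted p of 0.05. At 12 months 11 were higher, with a median of 0.15, and 4 (28.6%) were higher under TPM scaling. Scp2, a thiolase and sterol carrier, was at 77.0 and 81.3 FPKM in controls and 103 and 112 in knockouts, and Phyh, which starts the breakdown of phytanic acid, at 445 and 444 against 538 and 651. Both were higher in both knockouts on the FPKM scale. At 3 months the lowest p values were those of Acot8 (log2 difference 0.28), Phyh (0.20) and Acox3 (-0.22).

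Of 34 genes of other fatty acid handling, 31 and 32 were tested and none was called in limma, with 3 and 12 under an unadjusted p of 0.05. At 12 months 19 were higher, or 13 (40.6%) under TPM scaling. Gpihbp1, which holds lipoprotein lipase on the capillary wall, was at 50.7, 46.5 and 44.8 FPKM in 3-month controls and at 74.6, 67.7 and 67.1 in knockouts, without overlap (log2 difference 0.55, SE 0.12, adjusted p = 0.0827 in limma). Gpam, which begins glycerolipid synthesis, was lower in every 3-month knockout (13.4, 20.9 and 12.1 against 9.10, 3.73 and 9.83 FPKM) and higher in both 12-month knockouts (36.2 and 36.4 against 58.9 and 53.5). The other low p values were those of Acsl6 at 3 months (0.39) and of Acad12 (1.38) and the droplet protein Plin3 (0.68) at 12 months, as log2 differences.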

How the data were processed

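RNA from mouse hearts was sequenced in 10 libraries. The deposited values are FPKM, as the authors computed them, in a table for each age. Tools listed per the submitters' processing notes are Cufflinks 2.1.1, STAR 2.5.1b, TopHat2 2.1.0 and FastQC, with builds GRCm38 and mm10. What each did, and any scaling between libraries, was not given in the sources used. Per the labels' protocols, the NEBNext Ultra II Directional kit gave stranded poly(A) libraries at 3 months, and the Genome Institute of Singapore prepared those of 12 months. By its name the older table lacks outliers, with no criterion stated. FPKM keep no counts, so precision is given by the spread between libraries.

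At 3 months, 69 repeated identifiers were summed. Genes averaging 1 FPKM or more across an age were fitted on log2(FPKM + 1) with limma 3.58.1 (R 4.3.3, empirical Bayes with a trend), each age alone, and in 1 fit of 4 group means for the difference between ages. P-values were adjusted over all genes tested (Benjamini-Hochberg), and an adjusted p under 0.05 was a call. A log2 difference on this scale understates low genes. Levels were not compared between tables. The fits were tested on simulated data. No columns were left unassigned.

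Read depth was recovered from low FPKM at 12 months, where 88.5% to 89.8% fell within 0.05 of whole reads, and not at 3 months (18.7% to 31.4%). Positions and shared 50-base stretches came from GENCODE M21, and promoters from RefSeq (GRCm38.p6).

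The rule for names took all 37 genes, with values in every library for at least the 5 of lowest p at each age, and of each wider list every called gene or else the 3 of lowest p at each age, of which 1 is left out of the text. Ppara, Ppargc1b, Fabp4 and Lipe at 12 months, Prdm16, Xist, Ddx3y and Ucp1 lie outside it and were picked once values had been seen. The genes and lists were chosen with earlier results of these data known. Alternatives covered the pseudocount, filter, scaling, variance trend, replicate block and each library left out.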

Additional observations from a re-analysis of the deposited data

Results flagged for a closer look

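Ucp3 stood out because its difference between genotypes was not the same at the ages: knockout minus control at 12 months minus the same at 3 months was 2.22 on the log2 scale (SE 0.34, adjusted p = 0.0125 in limma with Benjamini-Hochberg adjustment over 11580 genes). The difference was -0.42 at 3 months and 1.80 at 12 months, where both knockouts lay above both controls. The adjusted p was 0.0806 with the 12-month controls counted as 1 sample, an alternative chosen after seeing the data. At 12 months sex-linked genes differ with the genotype labels, so genotype and sex cannot be told apart in this value.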

How the results depend on the processing

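Each 12-month group held 2 libraries (21.8 to 31.3 M reads), and the depth of 3 months was not recovered. No setting with all libraries called any of the 37 genes at 3 or 12 months in limma, and the pseudocount of 0.1, the filter at 5 FPKM and the fit with no trend turned no direction. Without the filter 10 genes were called at 3 months and 17 at 12 months, against 91 and 52. Median-of-ratios scaling gave 59 at 3 months and 48 at 12 months, and turned no direction among the 37 genes at 12 months. With the 12-month controls averaged to 1 sample, chosen after seeing the data, 0 genes were called at 12 months and 40 for the difference between ages, 0 of them among the 37. The cause was not tested.

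Scaling to TPM put the 12-month median of the 37 genes at 0.10 and turned Acsl1 to -0.19, Acads to -0.06, Hadh to -0.17, Echs1 to -0.23, Eci1 to -0.10, Etfb to -0.14, Ucp2 to -0.20 and Plin5 to -0.07. At 3 months Lpl, Acadl and Dgat2 turned to -0.08, -0.04 and -0.08 under TPM and to -0.08, -0.05 and -0.08 under median of ratios.

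Same-numbered control and knockout libraries did not deviate together (correlations of -0.46 to -0.12 at 3 months and -0.0063 at 12 months), so the numbers do not pair them. With the replicate block 29 genes were called at 3 months, 40 at 12 months and 55 for the difference between ages, 0 of them among the 37 (Ucp3 adjusted p = 0.0624 in limma).

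Leaving out 1 library in turn gave 22 to 81 calls at 3 months (22 without control replicate 2), 0 to 4409 at 12 months and 40 to 787 for the difference between ages. Of the 37 genes, 0 to 35 were called at 12 months and 0 to 13 for the difference. The highest counts are those without 12-month knockout replicate 1. Their median lay at -0.13 to 0.09 at 3 months, 0.12 to 0.73 at 12 months and 0.14 to 0.78 for the difference. At 3 months directions turned within -0.17 to 0.01 for Fabp3, -0.13 to 0.12 for Lpl, -0.14 to 0.08 for Cpt1b, -0.18 to 0.03 for Slc25a20, -0.04 to 0.11 for Acadl, -0.13 to 0.07 for Acadm, -0.02 to 0.22 for Acadvl, -0.16 to 0.01 for Decr1, -0.16 to 0.05 for Etfa, -0.16 to 0.12 for Plin5, -0.09 to 0.15 for Dgat2 and -0.18 to 0.09 for Pnpla2. At 12 months, without knockout replicate 2 and without knockout replicate 1, values were -0.03 and 0.34 for Hadh, -0.11 and 0.30 for Echs1, -0.14 and 0.58 for Eci1, -0.05 and 0.42 for Etfb, -0.72 and 2.38 for Acot1, 0 and 1.16 for Mlycd, -0.50 and 0.73 for Ucp2 and -0.34 and 0.83 for Plin5.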

Other observations

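Some genes of the wider lists were chosen after their values were seen. Lipe, the hormone-sensitive lipase, was at 17.2 and 16.7 FPKM in the 12-month controls and at 19.3 and 47.1 in knockouts. Fabp4, a fatty acid carrier of adipocytes and capillary endothelium, was at 587 and 586 FPKM against 704 and 1358. Both were highest in knockout replicate 2.

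Ppara was at 13.4 and 14.2 FPKM in the 12-month controls, 16.7 in knockout replicate 1 and 6.35 in knockout replicate 2. Ppargc1b, a coactivator of mitochondrial genes, was at 5.54 and 5.39 FPKM in controls, 7.72 in knockout replicate 1 and 1.71 in knockout replicate 2. Both were lowest in that library. None of these 4 genes was called at 12 months in limma.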
